A study of Mus musculus with 20 samples.

Results

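The Egr family consists of 4 genes, Egr1, Egr2, Egr3 and Egr4, which encode zinc finger transcription factors. They belong to the immediate early genes, whose transcription is switched on within minutes of a stimulus and needs no new protein synthesis. In neurons, synaptic activity acts on them through calcium and cyclic AMP signalling, the MAPK/ERK pathway, the serum response factor SRF with its Elk partners and CREB, and their products bind a shared GC-rich site in target genes. The corepressors Nab1 and Nab2 bind Egr1, Egr2 and Egr3 and dampen their activity. Egr1, also called Zif268 or Krox24, and Egr2, also called Krox20, are widely used as markers of neuronal activity. Egr2 is in addition known for its part in hindbrain patterning and in Schwann cell myelination, and Egr3 for its part in muscle spindle development.

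The members were taken as the transcript clusters, groups of probes that report 1 gene, that the array annotation pairs with exactly 1 symbol equal to Egr1, Egr2, Egr3 or Egr4. Each gene was found with 1 transcript cluster, so that 4 of the 19938 genes with such a transcript cluster, and 4 of all 28853 transcript clusters, are described. They are 10454782 for Egr1 on chromosome 18, 10363735 for Egr2 on chromosome 10, 10416251 for Egr3 on chromosome 14 and 10545859 for Egr4 on chromosome 6, all annotated as protein-coding.

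DKO mice, which lack Adcy1 and Adcy8 (AC1 and AC8, the adenylyl cyclases stimulated by Ca2+), were compared with WT mice in a contextual conditioned fear (CF) paradigm. Amygdala and hippocampus were micropunched from male C57BL/6 mice of 2 mo at baseline without treatment and 0 hr, 1 hr, 48 hr and 1 wk after a CF training trial with 1 foot shock. Each of the 20 combinations of region, genotype and time was measured on 1 Affymetrix Mouse Gene 1.0 ST array with the RNA of 5 to 10 mice pooled, which gives 4 groups (amygdala DKO, amygdala WT, hippocampus DKO and hippocampus WT) of 5 arrays. The question was whether the transcriptional course after CF depends on the Ca2+-stimulated adenylyl cyclases.

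Several properties limit the groups as a model. The deletions are present from birth and in every cell. The DKO mice carried the tetop-AC8 transgene or the CaMKII-tTA transgene (tTA driven by a forebrain promoter) without its partner, or neither, came from matings on doxycycline and received it until weaning. The WT mice were C57BL/6 mice that were not littermates of the DKO mice. The 1 wk mice went through a 5 min test trial before killing, so that the 1 wk arrays follow a second exposure to the context. Whether both regions of a condition came from the same mice was not stated. If they did, the tests over the 4 groups rest on fewer than 4 independent pools of mice per time, and their p-values are then too small. Pooling leaves no estimate of the spread between mice, and p-values measure the spread between arrays of different conditions.

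Adcy1 lay between 7.51 and 7.77 in amygdala DKO arrays, against 7.97 to 8.38 in amygdala WT arrays, and between 7.67 and 7.80 in hippocampus DKO arrays, against 9.04 to 9.53 in hippocampus WT arrays. Adcy8 lay between 5.46 and 5.89 in amygdala DKO arrays, against 6.94 to 7.26 in amygdala WT arrays, and between 5.22 and 5.79 in hippocampus DKO arrays, against 7.14 to 7.66 in hippocampus WT arrays. No DKO array thus reached the lowest WT array of the same region for either gene. All levels are RMA values on a log2 scale, in which 1 unit is a 2-fold difference, and levels are compared only between arrays for 1 gene. Neuronal markers (6 of 6 measured) had a mean level between 10.64 and 11.02 on all arrays. Hippocampal markers (7 of 8 measured) averaged between 6.78 and 7.27 on amygdala arrays, against 7.60 to 7.98 on hippocampus arrays, and 5 of the 7 passed as lower and 1 as higher in the amygdala. The differences ran from -2.51 (log2, amygdala minus hippocampus) for Prox1, which marks the dentate gyrus, to 0.69 for Wfs1 of the same list. In such tissue, fewer cells that express a gene and less RNA per cell cannot be told apart.

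Of the 4 genes, Egr2 and Egr4 had promoter windows in the RefSeq table of assembly GRCm38.p6, each from 250 bases before to 50 bases after an annotated start. They are shown because Egr1 and Egr3 had no window there, and a link between the motifs and the changes after CF was not tested. SRF and CREB act on immediate early genes through short promoter motifs. Searched on both strands were the full CRE TGACGTCA, its half-site TGACG, which the full CRE contains, the CArG box that SRF binds, and the Egr site GCGNGGGCG. Egr2 had 5 windows, and the one printed lies on the plus strand at chr10:67537619-67537918. Its capitals mark a half-site that starts 111 bases before the start, a CArG box 72 bases before it and a half-site 55 bases before it.
Egr2: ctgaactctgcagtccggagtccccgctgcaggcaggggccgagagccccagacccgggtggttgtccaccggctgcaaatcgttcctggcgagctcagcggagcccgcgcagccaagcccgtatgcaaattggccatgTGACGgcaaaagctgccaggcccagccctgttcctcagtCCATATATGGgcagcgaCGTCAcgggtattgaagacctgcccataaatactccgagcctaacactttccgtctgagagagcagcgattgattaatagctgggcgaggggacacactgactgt
The Egr4 window lies on the minus strand at chr6:85513540-85513839, and its capitals mark half-sites that start 177 and 109 bases before the start.
Egr4: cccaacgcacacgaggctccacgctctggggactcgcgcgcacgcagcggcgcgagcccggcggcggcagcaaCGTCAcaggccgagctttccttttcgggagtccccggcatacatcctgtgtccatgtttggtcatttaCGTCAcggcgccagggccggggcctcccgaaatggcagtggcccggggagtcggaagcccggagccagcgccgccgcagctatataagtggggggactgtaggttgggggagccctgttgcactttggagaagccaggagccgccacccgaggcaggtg

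A CArG box was found in 1.63% of the 32851 promoter windows of all genes, a half-site in 20.8%, a full CRE in 1.79% and an Egr site in 5.55%. Of the 5 Egr2 windows, 3 overlap and share the marked letters. Another, at chr10:67537316-67537615, holds a different CArG box 72 bases before its start and no half-site, and the last holds none of the motifs. The Egr4 window held no CArG box. Neither the full CRE nor the Egr site was found in a window of either gene. These are matches of letters and no measurement of binding.

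Egr2 rose 1 hr after CF over the 4 groups, with a higher level than at baseline in each, and was the only member to pass a test over time. In amygdala DKO arrays its level was 7.14 at baseline, 7.32 right after CF (0 hr), 8.04 after 1 hr, 6.95 after 48 hr and 7.14 after 1 wk. In amygdala WT arrays the levels were 7.23, 7.74, 8.33, 7.28 and 7.62 in the same order of times. The 1 hr array was the highest of its group in both genotypes, and the DKO arrays lay below the WT arrays of the same time at all 5 times. In hippocampus DKO arrays Egr2 was 6.57, 6.58, 7.79, 6.28 and 6.18 from baseline to 1 wk. In hippocampus WT arrays it was 6.46, 7.14, 7.54, 6.73 and 7.08 from baseline to 1 wk. Here too the 1 hr array was the highest of either genotype, and the DKO array lay above the WT array at baseline and 1 hr and below it at the other times.

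**Figure D1:**
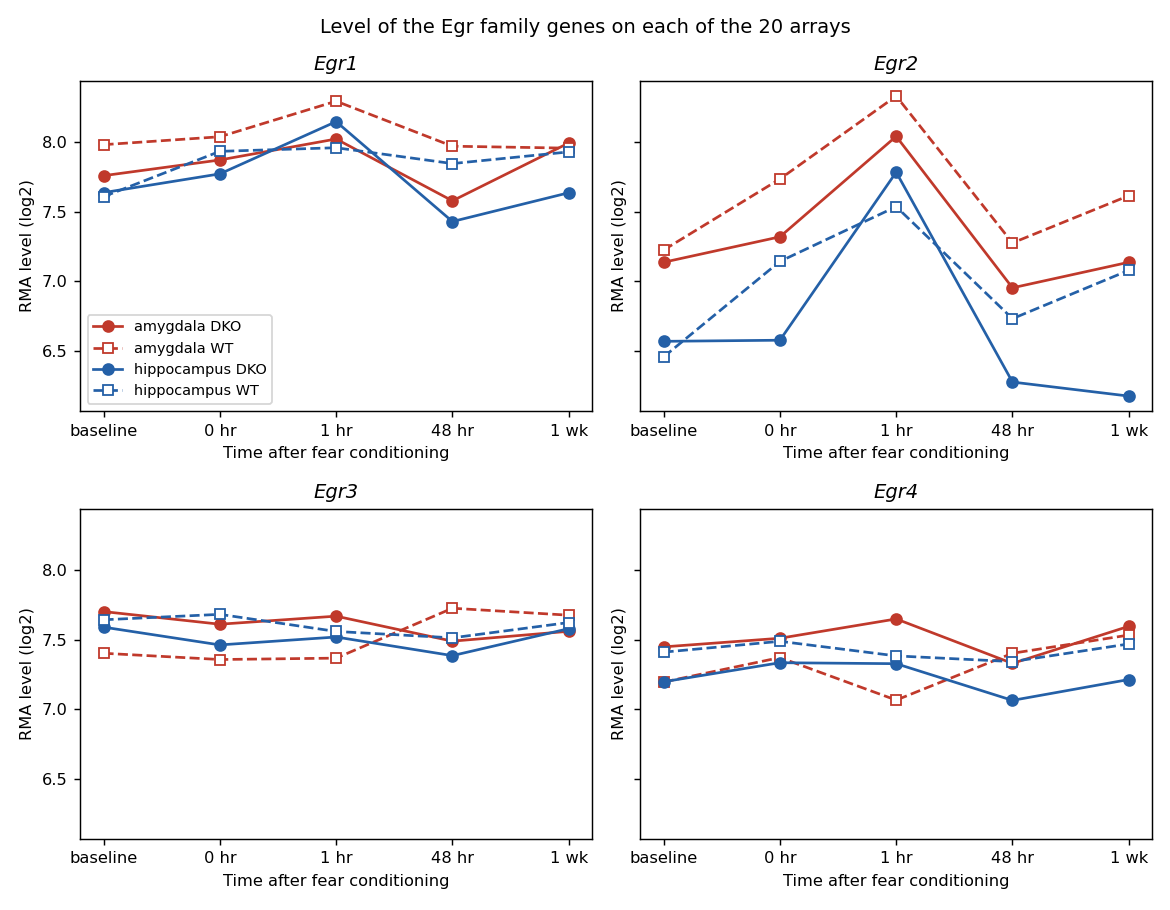
RMA level (log2, vertical axis, the same range in each panel) of Egr1, Egr2, Egr3 and Egr4 at the 5 times of the CF experiment. Each point is 1 array, with DKO as filled circles and solid lines, WT as open squares and dashed lines, the amygdala in red and the hippocampus in blue. Egr2 peaked at 1 hr in all 4 groups, between 7.54 and 8.33, while Egr3 stayed between 7.36 and 7.73 on all arrays.

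Over the 4 groups as replicates of a time, Egr2 averaged 7.92 ± 0.34 at 1 hr, against 6.85 ± 0.39 at baseline (SD, n = 4 arrays each). The difference was 1.08 on the log2 scale (SE 0.13, 95% interval 0.81 to 1.35), or 2.11-fold, with an adjusted p of 0.00118 in limma that takes both regions as independent. Egr2 ranked at place 2 by p-value and at place 4 by size of the rise among all transcript clusters. It was 1 of 7 transcript clusters past the adjusted p of 0.05, which is 0.0243% of those tested, all of them higher at 1 hr, and the only Egr member among them. The call held in all 20 fits that left out 1 array, with a difference between 0.94 and 1.17 and an adjusted p between 0.000199 and 0.0159.

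Choroid plexus markers, a sign of how much of that tissue a punch held, moved with time as well. Their mean level (9 of 9 measured) lay between 7.34 and 8.57 at 1 hr, against 8.39 to 8.82 at baseline, and none of the 9 passed the test. At 1 hr they were at 8.47 in amygdala DKO, 7.39 in amygdala WT, 7.34 in hippocampus DKO and 8.57 in hippocampus WT, against 8.60, 8.48, 8.82 and 8.39 on the baseline arrays of the same groups. The part of choroid plexus content in the Egr2 values was not tested.

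The Egr2 rise at 1 hr was present in both genotypes. It was 0.91 in amygdala DKO against 1.11 in amygdala WT and 1.22 in hippocampus DKO against 1.08 in hippocampus WT (log2, 1 array against 1 baseline array), that is 1.87-fold, 2.16-fold, 2.32-fold and 2.11-fold. DKO minus WT was -0.03 (SE 0.18) in the test with regions as replicates, with a 95% interval of -0.42 to 0.36. Within the amygdala alone, with both genotypes as replicates, the rise was 1.01 (SE 0.13, adjusted p = 0.108 in limma), and within the hippocampus alone 1.15 (SE 0.22, adjusted p = 0.618), so that neither passed the adjusted p of 0.05. In the amygdala 0.00347% of transcript clusters passed and in the hippocampus 0%, where 5.87% had an unadjusted p of at most 0.05, Egr1 and Egr2 among them. The amygdala result crossed the limit in some alternatives, with an adjusted p of 0.0298 when transcript clusters below the median level were left out. Without 1 array the hippocampus difference lay between 0.80 and 1.50. It was 1.50 without the WT array of 1 hr, in a fit whose 1 hr level rests on the DKO array alone.

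Between 0 hr and 1 hr Egr2 gained another 0.73 (SE 0.13, log2) over the 4 groups, the largest rise and the smallest p-value of all transcript clusters, with an adjusted p of 0.53. At this comparison 0% of transcript clusters passed, and 5.32% had an unadjusted p of at most 0.05. At 0 hr itself Egr2 was 0.35 above baseline (SE 0.13, adjusted p = 1 in limma), where 0.00347% of transcript clusters and no Egr member passed.

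The gap between the genotypes in the Egr2 change was widest at 0 hr and 1 wk, without passing the test. At 0 hr Egr2 changed by 0.18 in amygdala DKO against 0.51 in amygdala WT, and by 0.01 in hippocampus DKO against 0.69 in hippocampus WT (log2). At 1 wk it changed by 0.00 in amygdala DKO against 0.39 in amygdala WT, and by -0.39 in hippocampus DKO against 0.62 in hippocampus WT. Both DKO changes were below both WT changes at each of these times. The share of all transcript clusters with such an order was not counted. Over all transcript clusters the median of DKO minus WT in the change was -0.04 at 0 hr and -0.07 at 1 wk. DKO minus WT in the change from baseline was -0.50 at 0 hr (SE 0.18, adjusted p = 0.999 in limma), -0.40 at 48 hr (SE 0.18, adjusted p = 0.499), beside a median of -0.15 over all transcript clusters, and -0.70 at 1 wk (SE 0.18, 95% interval -1.09 to -0.31, adjusted p = 0.339). The 48 hr difference was -0.21 after median centring of the arrays. None of these passed the adjusted p of 0.05, nor did any other transcript cluster at any time (0% at each of the 4 times). At 1 wk 13.1% of all transcript clusters, and Egr2 alone of the 4 members, had an unadjusted p of at most 0.05, and Egr2 stood at place 98 by p-value.

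**Figure D2:**
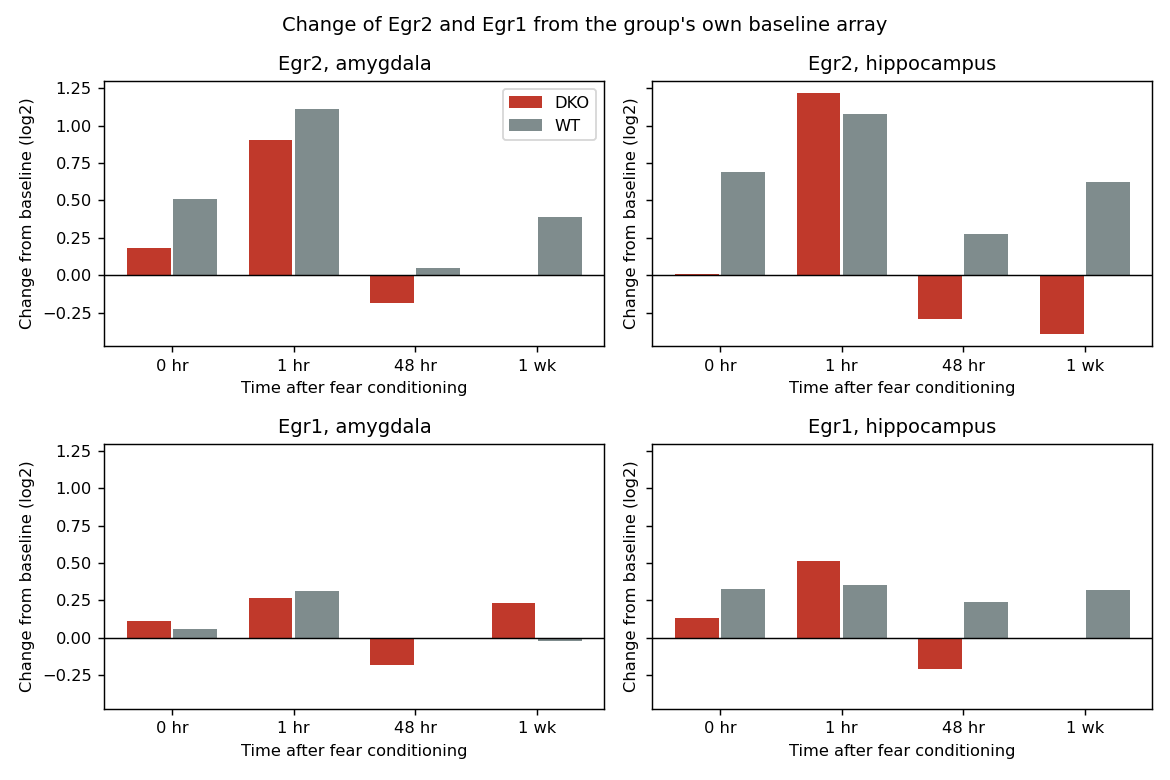
Change of Egr2 (upper panels) and Egr1 (lower panels) from the baseline array of the same group, in log2 units on the vertical axis, at 0 hr, 1 hr, 48 hr and 1 wk. Each bar is 1 array minus 1 baseline array, with DKO in red to the left of WT in grey, so that no error can be drawn. For Egr2 the 1 hr bars lie between 0.91 and 1.22 in both genotypes, and the 1 wk bars at 0.00 and -0.39 in DKO against 0.39 and 0.62 in WT.

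Egr1 had a course like that of Egr2 with smaller differences, none of which passed the test over time. From baseline to 1 wk it was 7.76, 7.87, 8.02, 7.58 and 7.996 in amygdala DKO arrays and 7.98, 8.04, 8.30, 7.97 and 7.96 in amygdala WT arrays. In the same order it was 7.64, 7.77, 8.15, 7.43 and 7.64 in hippocampus DKO arrays and 7.61, 7.94, 7.96, 7.85 and 7.93 in hippocampus WT arrays. The 1 hr array was the highest in each group, although only narrowly in amygdala DKO and hippocampus WT. Over the 4 groups Egr1 was 8.11 ± 0.15 at 1 hr, against 7.75 ± 0.17 at baseline (SD, n = 4), and all 4 groups were higher. The difference of 0.36 (SE 0.09, 95% interval 0.18 to 0.54) stood at place 44 by p-value and did not pass adjustment (adjusted p = 0.372 in limma). The other times differed from baseline by 0.16 (0 hr), -0.04 (48 hr) and 0.13 (1 wk).

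Egr3 did not follow this course. It lay between 7.49 and 7.70 in amygdala DKO arrays, between 7.36 and 7.73 in amygdala WT arrays, between 7.39 and 7.59 in hippocampus DKO arrays and between 7.51 and 7.68 in hippocampus WT arrays, and these ranges overlapped. At 1 hr Egr3 was 7.67 in amygdala DKO, 7.37 in amygdala WT, 7.52 in hippocampus DKO and 7.56 in hippocampus WT, against 7.70, 7.40, 7.59 and 7.64 at baseline. The mean difference was -0.06 (SE 0.09), with a 95% interval of -0.24 to 0.13 whose upper end lies far below the rise of Egr2. The largest change was in amygdala WT, by 0.32 at 48 hr and 0.27 at 1 wk.

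Egr4 had its highest array at 1 hr in amygdala DKO but not in the other 3 groups. It was 7.45, 7.51, 7.65, 7.33 and 7.60 in amygdala DKO arrays and 7.19, 7.37, 7.07, 7.40 and 7.53 in amygdala WT arrays, from baseline to 1 wk. In hippocampus DKO arrays it was 7.20, 7.33, 7.33, 7.06 and 7.21 at the same times, and in hippocampus WT arrays 7.41, 7.49, 7.38, 7.34 and 7.47. The difference between 1 hr and baseline was 0.04 (SE 0.09, 95% interval -0.14 to 0.23), made of changes of 0.20 in amygdala DKO against -0.13 in amygdala WT and 0.13 in hippocampus DKO against -0.03 in hippocampus WT. At 48 hr no member passed over the 4 groups and no transcript cluster did (0%, with 3.59% and no member at an unadjusted p of at most 0.05), and at 1 wk 0.00347% of transcript clusters and no member did.

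The overall level of the arrays moved as well. The median over all transcript clusters of an array fell by 0.127 in amygdala DKO and by 0.117 in hippocampus DKO at 48 hr, against rises of 0.112 in amygdala WT and 0.033 in hippocampus WT. All 4 Egr genes were below baseline at 48 hr in both DKO regions, 8 changes of 8 between -0.12 and -0.29, against 3 of 8 in WT. With the arrays centred on their medians, 7 of the 8 DKO changes were still below baseline, and they lay between -0.18 and 0.01. The part of the overall level in the DKO values at 48 hr was not tested.

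Within single groups, where 1 array stands against 1 baseline array and no test is possible, a rise of 1.5-fold was used as the limit. At 1 hr only Egr2 passed it, in all 4 groups, whereas 0.367% of all transcript clusters did in amygdala DKO, 0.17% in amygdala WT, 0.142% in hippocampus DKO and 0.97% in hippocampus WT. By size of the rise at 1 hr, Egr2 stood at place 14 in amygdala DKO, 2 in amygdala WT, 1 in hippocampus DKO and 59 in hippocampus WT. At 0 hr it passed in hippocampus WT alone, beside 0.426% of transcript clusters in amygdala DKO, 0.343% in amygdala WT, 0.125% in hippocampus DKO and 0.236% in hippocampus WT. At 48 hr no member passed, beside 0.354% in amygdala DKO, 1.48% in amygdala WT, 0.0866% in hippocampus DKO and 1.08% in hippocampus WT. At 1 wk Egr2 passed in hippocampus WT, beside 0.839% in amygdala DKO, 2.28% in amygdala WT, 0.527% in hippocampus DKO and 0.516% in hippocampus WT. No member fell by 1.5-fold at any time.

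Most other immediate early genes lay closer to baseline than Egr2 at 1 hr. Of 52 listed genes, among them Fos, Junb, Arc and Npas4, 50 were measured. At 1 hr over the 4 groups 44 of them were above baseline, with a median of 0.15 (log2) beside 0.002 over all transcript clusters, but only Sgk1, a kinase induced by glucocorticoids and by growth factors, passed the test (0.51, SE 0.09, adjusted p = 0.043 in limma). Sgk1 was 7.81 in amygdala DKO, 8.05 in amygdala WT, 7.94 in hippocampus DKO and 8.30 in hippocampus WT at 1 hr, against 7.33, 7.50, 7.67 and 7.56 at baseline. At 0 hr 47 of the 50 were above baseline, with a median of 0.13 and none past the limit. In single groups at 1 hr, the number past 1.5-fold was 3 of 50 in amygdala DKO (Nr4a2, Tiparp and Ptgs2), 2 in amygdala WT (Npas4 and Gadd45b), 0 in hippocampus DKO and 1 in hippocampus WT (Sgk1). At 1 hr 1 of the 50 genes was further above baseline than Egr2 in amygdala DKO, and none was in the other groups.

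**Figure D3:**
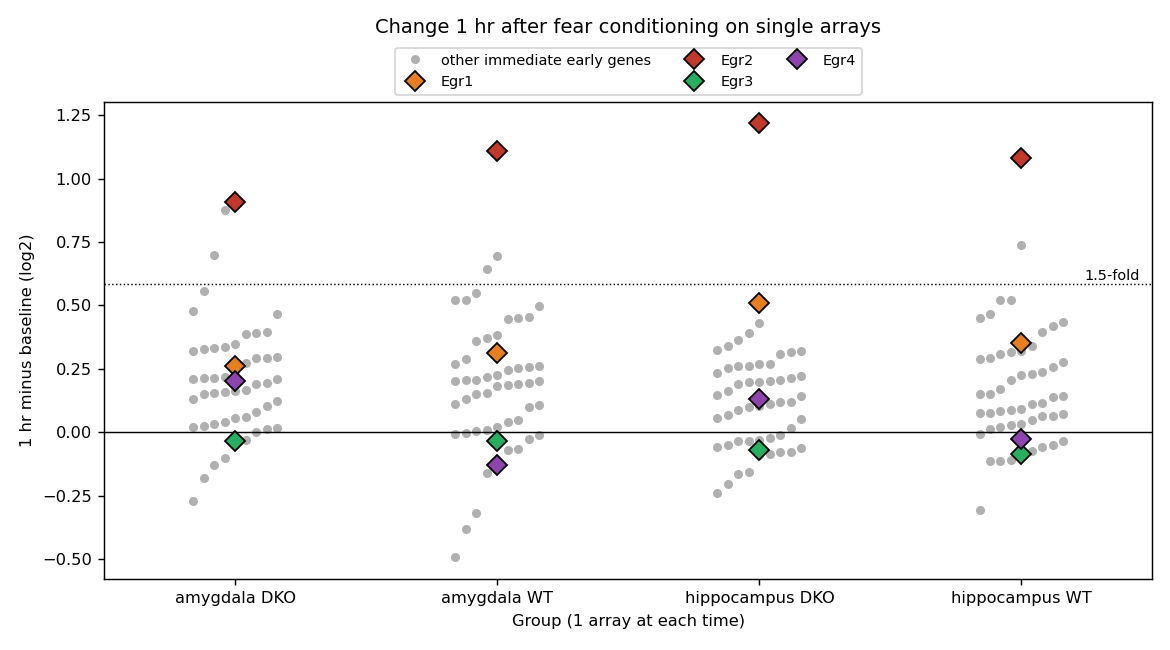
Change between baseline and 1 hr (log2, vertical axis) in each of the 4 groups, 1 array at each time. Diamonds are the 4 Egr genes, grey points the 50 other immediate early genes measured, spread sideways for legibility, and the dotted line marks 1.5-fold. Egr2 lies between 0.91 and 1.22, Egr1 between 0.26 and 0.51, and Egr3 and Egr4 between -0.13 and 0.20.

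No partner or target of the family passed a test over time. The corepressors Nab1 and Nab2 differed from baseline by -0.03 and 0.14 at 1 hr (log2), and neither passed a test of time, genotype or region. Of 22 upstream factors, which include SRF, the Elk factors, CREB and the kinases of the ERK pathway, 18 were measured, and none passed at any time over the 4 groups or between genotypes. Of 12 genes reported as Egr targets in neurons, none passed over time or between genotypes, 10 were above baseline at 1 hr with a median of 0.10, and Arc, a regulator of synaptic receptor traffic that is also an immediate early gene, had the largest difference (0.42). Genes that Egr2 drives in Schwann cells (5 of 8 measured) had a median of 0.03 at 1 hr, and none passed over time.

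Between genotypes, with the 5 times of a genotype as replicates, no Egr member passed the adjusted p of 0.1 in either region. Egr2 averaged 7.32 ± 0.43 in amygdala DKO and 7.64 ± 0.45 in amygdala WT (SD, n = 5), a difference of -0.32 (SE 0.21, 95% interval -0.76 to 0.12, adjusted p = 0.646 in limma). Without the DKO array of 1 hr it was -0.50, and without the WT array of 1 hr -0.15. Egr1 averaged 7.85 ± 0.18 in amygdala DKO and 8.05 ± 0.14 in amygdala WT (difference -0.20, SE 0.10, adjusted p = 0.646 in limma). Egr3 and Egr4 differed by 0.10 and 0.19 in the amygdala, with DKO above WT, and adjusted p-values of 0.685 and 0.646. In this comparison 0.097% of transcript clusters passed, and 6.82% had an unadjusted p of at most 0.05, among them 1 member, Egr1.

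In the hippocampus Egr2 averaged 6.68 ± 0.645 in DKO and 6.99 ± 0.41 in WT (SD, n = 5), a difference of -0.31 (SE 0.25, 95% interval -0.85 to 0.23, adjusted p = 0.625 in limma). It was -0.59 without the DKO array of 1 hr, -0.19 without that of 1 wk and -0.18 without the WT array of 1 hr. Egr1 differed by -0.13 and Egr3 by -0.10, with adjusted p-values of 0.633 and 0.525. Egr4 averaged 7.23 ± 0.11 in DKO and 7.42 ± 0.06 in WT (difference -0.19, SE 0.06, adjusted p = 0.359 in limma). The highest DKO array of Egr4 was at 7.33 and the lowest WT array at 7.34. How many of all transcript clusters have groups without overlap was not counted. In this comparison 0.118% of transcript clusters passed, and 11.4% had an unadjusted p of at most 0.05, among them 1 member, Egr4.

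The genotype difference of Egr4 ran in opposite directions in the regions. DKO minus WT was 0.19 in the amygdala against -0.19 in the hippocampus, and the difference between these, 0.38 (SE 0.11, 95% interval 0.15 to 0.62), did not pass the adjusted p of 0.05 (adjusted p = 0.241 in limma, 0.0104% of transcript clusters past it). In the amygdala DKO was above WT at 4 of 5 times and most at 1 hr, by 0.58, and in the hippocampus DKO was below WT at 5 of 5 times. For Egr1, Egr2 and Egr3 the regions differed by -0.07, -0.01 and 0.20 with adjusted p-values of 0.791, 0.993 and 0.314.

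**Figure D4:**
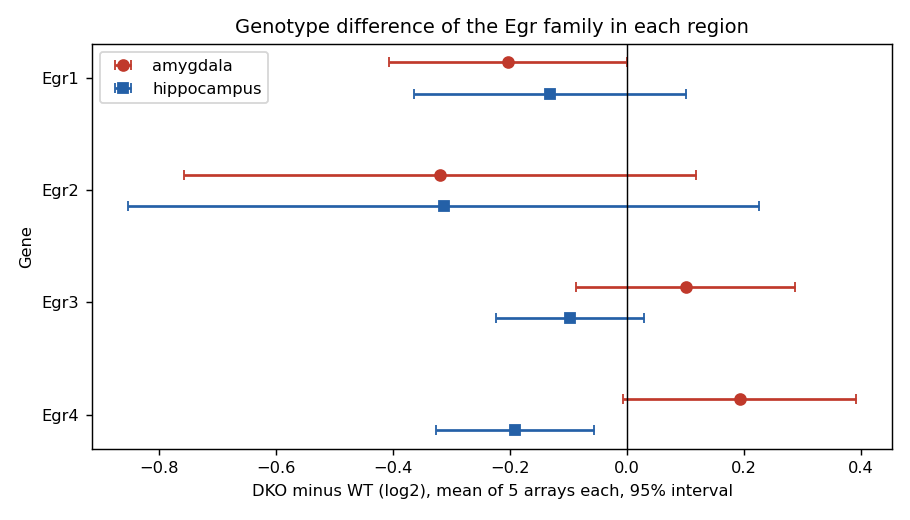
DKO minus WT (log2, horizontal axis) for each Egr gene, as the mean of 5 DKO arrays minus the mean of 5 WT arrays. Circles in red are the amygdala and squares in blue the hippocampus, and bars are 95% intervals from limma. The intervals of Egr2 are the widest, from -0.76 to 0.12 in the amygdala and -0.85 to 0.23 in the hippocampus, and Egr4 lies at 0.19 and -0.19.

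Marker lists moved with genotype on these arrays too. Striatal markers (8 of 10 measured) had a mean level between 8.80 and 9.05 in amygdala DKO, against 8.95 to 9.68 in amygdala WT. All 8 were lower in DKO (median -0.44) with none past the limit. All 8 had an unadjusted p below 0.05 in limma, beside 6.82% of all transcript clusters. Thalamic markers (6 of 6 measured) lay between 8.24 and 8.80 in hippocampus DKO, against 7.74 to 8.33 in hippocampus WT. All 6 were higher in DKO (median 0.46) with none past the limit. All 6 had an unadjusted p below 0.05 in limma, beside 11.4% of all transcript clusters. The striatal mean also moved with time, from 9.68 at baseline to 8.95 at 1 wk in amygdala WT, against 8.80 and 9.05 in amygdala DKO. Over both regions, DKO minus WT in the change at 1 wk was above 0 for all 8 striatal markers. Its median was 0.54, beside -0.07 over all transcript clusters, and none passed the limit. The part of the striatal and thalamic markers in the Egr values was not tested.

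Egr2 was higher in the amygdala than in the hippocampus, in all 10 pairs of arrays of the same genotype and time. It averaged 7.48 ± 0.44 in the amygdala and 6.83 ± 0.54 in the hippocampus (SD, n = 10), a difference of 0.65 (SE 0.06, 95% interval 0.52 to 0.77, 1.56-fold) with an adjusted p of 6.5e-07 in limma. The smallest gap of a pair was 0.26, in DKO at 1 hr, and the largest 0.96, in DKO at 1 wk. The difference passed in every alternative and in every fit without 1 array. It is read against the 17.3% of all transcript clusters that passed in this comparison of 2 tissues.

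Egr1 was 7.95 ± 0.19 in the amygdala and 7.79 ± 0.21 in the hippocampus (SD, n = 10), higher in the amygdala in 9 of 10 pairs. The difference of 0.16 (SE 0.05, 1.12-fold) was at the limit (adjusted p = 0.0486 in limma) and was lost in 4 of 6 alternatives, with an adjusted p of 0.126 after median centring. Of the 20 fits without 1 array, it passed only in the 2 without a DKO array of 1 hr (0.19, adjusted p = 0.021 in limma). Egr3 was 7.56 ± 0.14 in the amygdala and 7.56 ± 0.09 in the hippocampus, with a difference of 0.00 and a 95% interval of -0.12 to 0.12. Egr4 was 7.41 ± 0.18 in the amygdala and 7.32 ± 0.13 in the hippocampus (difference 0.09, adjusted p = 0.44).

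**Figure D5:**
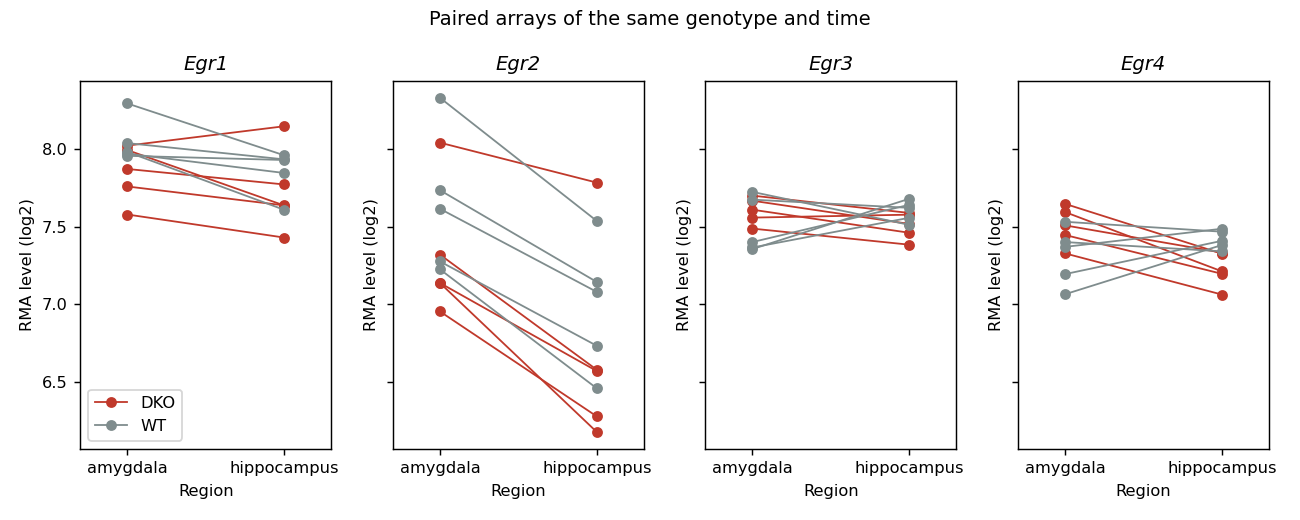
RMA level (log2, vertical axis) of each Egr gene in the amygdala (left in each panel) and the hippocampus (right). Each line joins the 2 arrays of 1 genotype and time, with DKO in red and WT in grey. All 10 lines of Egr2 fall towards the hippocampus, by 0.26 to 0.96, while those of Egr3 and Egr4 run in both directions.

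By mean level, the groups of Egr2 were ordered amygdala WT (7.64), amygdala DKO (7.32), hippocampus WT (6.99) and hippocampus DKO (6.68), and each step was smaller than the SD within the groups. For Egr1 the order was amygdala WT (8.05), hippocampus WT (7.86), amygdala DKO (7.85) and hippocampus DKO (7.73), and only its first step exceeded the SD of both neighbours. For Egr3 it was amygdala DKO (7.61), hippocampus WT (7.60), hippocampus DKO (7.51) and amygdala WT (7.505), and only the step between the hippocampus groups exceeded both SDs. For Egr4 it was amygdala DKO (7.51), hippocampus WT (7.42), amygdala WT (7.31) and hippocampus DKO (7.23), where no neighbouring groups differed by more than the larger of their SDs.

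Over time, the means of Egr2 over the 4 groups were 6.85, 7.19, 7.92, 6.81 and 7.003 from baseline to 1 wk, and those of Egr1 were 7.75, 7.91, 8.11, 7.71 and 7.88. Ordered by level, only the 1 hr mean of Egr2 and that of Egr1 stood away from the next mean, that of 0 hr, by more than the SD of the 4 arrays. The means of Egr3 ran between 7.53 and 7.61 and those of Egr4 between 7.28 and 7.45, and no step between neighbouring means in their order exceeded the SD of the arrays of either time.

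The regions also differ in their cells. In this comparison 17.3% of all transcript clusters passed, and the counts of list genes that follow are read beside that share. Of the 50 other immediate early genes measured, 8 were higher and 12 lower in the amygdala. Rgs2, a regulator of G protein signalling, was highest (0.70) and Ptgs2, which encodes cyclooxygenase-2, lowest (-1.04). All 8 striatal markers measured and 6 of 7 markers of inhibitory neurons were higher in the amygdala, while Pvalb of the latter list was lower (-0.87). Of the 5 markers of excitatory forebrain neurons measured, 3 were lower in the amygdala, with Neurod6 lowest (-1.33). Of the 6 astrocyte markers measured, only Gfap, Aqp4 and Gja1 passed, as lower. Of the 6 endothelial markers measured, only Pecam1, Flt1 and Tek passed, also as lower. Among the 6 neuronal markers, Rbfox3 and Nefl were lower and Tubb3 was higher. All 6 thalamic and all 6 oligodendrocyte markers measured, and the 5 Schwann cell targets of Egr2, which include the myelin genes Mbp and Mag, were lower there. Of the 18 upstream factors measured, 3 were lower in the amygdala (Elk1, Elk3 and Elk4). Rps6ka5, a kinase that phosphorylates CREB, was the 1 that was higher (0.56). The part of cell composition in the Egr2 difference was not tested.

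By course over the arrays, Egr1 was closest to Egr2 within the family, and Egr3 to Egr4. After the mean of each group of 5 arrays was subtracted, Pearson's r over the 20 arrays was 0.861 between Egr1 and Egr2 and 0.613 between Egr3 and Egr4, while the other pairs lay between -0.06 and 0.30. These arrays share the 5 times and the normalization, and r is given as a description. By the same measure over all genes, the closest to Egr2 were Bhlhe40 (r = 0.871), Egr1 and the glucose transporter gene Slc2a1 (0.86), and to Egr1 the poly(A) polymerase gene Papola (0.925), Sntb2 (0.901) and Homer1 (0.891), a synaptic scaffold gene with an activity-induced short form. The closest to Egr3 were Trip10 (0.915), 9130230L23Rik (0.909) and Dlgap5 (0.905), and to Egr4 Cd209b (0.869), Alpl (0.866) and Thbs2 (0.865).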

How the data were processed

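RNA of the 20 pools was hybridized to Affymetrix Mouse Gene 1.0 ST arrays. The authors normalized the scans by RMA in the Affymetrix Expression Console (version not given in the sources used here), which corrects background, quantile-normalizes and summarizes probes, and the deposited values are RMA levels on a log2 scale. Such normalization assumes a like distribution of signal on all arrays and compresses low levels. No transcript cluster and no array was left out. The genome build of the array annotation is not given in the sources used here, and chromosomes and promoters came from RefSeq (GRCm38.p6).

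Comparisons were fitted with limma 3.58.1 in R 4.3.3 (lmFit and eBayes) on all 28853 transcript clusters, with Benjamini-Hochberg adjustment over all of them, in these designs. DKO and WT were compared within a region with the 5 times as replicates (adjusted p of 0.1, the limit in the study's methods). Changes from baseline used group and time as additive terms over the 4 groups, or genotype and time within a region, and the differences in change used the other factor as replicates. Amygdala and hippocampus were compared with the condition as a block. These other comparisons used an adjusted p of 0.05. Changes on single arrays were counted at 1.5-fold with no test.

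The members and the gene lists (immediate early genes, corepressors, upstream factors, targets, cell type markers) were chosen with earlier results of these data known. Named are the members, list genes past a limit, list genes of largest change, the 3 genes most like each member by Pearson's r, and Adcy1 and Adcy8. Genes past 1.5-fold in single groups were named after their values were seen. The fits were tested on simulated data. Alternatives were median centring, a further quantile normalization, a filter on level, robust fitting with a variance trend, weighted arrays, a replicate block of times, 1 fit of all arrays, the methods' t-test, other limits and reference arrays, region by time terms, no block of conditions, and each array left out. The number of arrays limits the precision. Plots were made with Python and matplotlib. RT-PCR and AC8 rescue mice were not analysed here.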

Additional observations from a re-analysis of the deposited data

Results flagged for a closer look

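In a group of 5 arrays, 1 array can lie far from the other 4, which chance gives in about 1 of 20 groups. Of the 16 combinations of the 4 Egr genes with the 4 groups, 2 did so, and both were the 1 hr array. Egr2 in hippocampus DKO was 7.79 at 1 hr, and the gap to the next array was 0.75 of the range of the group. Egr1 in amygdala WT was 8.30 at 1 hr, with a gap of 0.758 of the range.

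On the deposited scale, changes from baseline ran in opposite directions in the genotypes, in both regions, for 2 genes. For Egr2 this did not hold after median centring. Every Egr gene was screened for such opposite directions at every time after CF, so that some cases can arise by chance. How often chance gives them, and how many of all transcript clusters show them, was not counted. Egr2 at 48 hr changed by -0.18 and -0.29 in DKO against 0.05 and 0.27 in WT (amygdala, then hippocampus), so that DKO minus WT was -0.40 (adjusted p = 0.499 in limma). After centring, the amygdala changes were -0.06 in DKO and -0.06 in WT, and DKO minus WT over both regions was -0.21. Egr4 at 1 hr changed by 0.20 and 0.13 in DKO against -0.13 and -0.03 in WT, so that DKO minus WT was 0.24 (SE 0.21, adjusted p = 1 in limma).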

How the results depend on the processing

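The rise of Egr2 at 1 hr over the 4 groups and its difference between the regions passed under every alternative and without any 1 array, with an adjusted p between 0.000292 and 0.00987 in the alternatives for the rise. No member passed between genotypes, or in the differences in change between genotypes, under any setting run. With the times as a replicate block, DKO minus WT of Egr2 was -0.32 in the amygdala and -0.31 in the hippocampus, with adjusted p-values of 0.698 and 0.434, and no call of a member changed.

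The difference of Egr1 between amygdala and hippocampus lost its call after median centring (0.14, which left 1 member past the limit), with a variance trend and robust fitting (0.16, 1 member), with array weights (0.12, 1 member) and without the block of conditions (0.16, 1 member). Without 1 array it lay between 0.13 and 0.19, and 1 or 2 members passed. It kept its call only without the DKO array of 1 hr of either region. Within the amygdala, 1 member, Egr2, passed at 1 hr with the filter on level, with a variance trend and robust fitting, and with array weights. Within the hippocampus the Egr2 difference at 1 hr lay between 0.80 and 1.50 without 1 array. The 1.50 came without the WT array of 1 hr, in a fit whose 1 hr level rests on the DKO array alone. The causes of these changes were not tested.

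Differences near 0 changed sign. After a further quantile normalization, the differences between 48 hr and baseline of Egr1, Egr2 and Egr4 were 0.013, 0.015 and 0.011, and DKO minus WT in the Egr2 change at 1 hr was 0.011. The region difference of Egr3 was -0.021 after median centring and between -0.023 and 0.037 without 1 array. Egr3 at 1 wk was at -0.0055 after median centring, -0.014 after a further quantile normalization, -0.016 with array weights and between -0.030 and 0.067 without 1 array. Without 1 array, Egr1 at 48 hr lay between -0.10 and 0.02, Egr2 at 48 hr between -0.13 and 0.046, Egr4 at 1 hr between -0.020 and 0.14, Egr4 at 48 hr between -0.10 and 0.012, and DKO minus WT in the Egr2 change at 1 hr between -0.25 and 0.18.

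On single arrays, the number of Egr2 changes past the limit was 0 at 0 hr and 0 at 1 wk at 2-fold. At 1 wk it was also 0 with the mean of both baseline arrays as the base, 0 after median centring and 0 after a further quantile normalization.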
